A study of Mus musculus with 6 samples.

Results

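Potassium channel genes were examined in the hippocampus of Glud1 transgenic (Tg) and wild-type (wt) mice. The members were all probesets annotated to a single gene whose symbol starts with Kcn, which gave 160 probesets of 82 genes out of 45037 probesets and 18193 genes. In Tg mice the Glud1 gene, which encodes the mitochondrial enzyme glutamate dehydrogenase, is driven by the neuron-specific enolase (Nse) promoter, so the transgene is meant for neurons, while the arrays read whole homogenized tissue. The groups were 3 Tg and 3 wt untreated male mice, all 9 months old and of the C57BL/6 background, with 1 array per mouse. The values are MAS5 signals, a linear brightness per probeset in arbitrary units. Levels of different probesets are not comparable with each other, so each probeset is compared only with itself across arrays. The summed marker signals given below are the exception, and bright probesets weigh most in them. The gene's brightest probeset by mean signal over the 6 arrays stands for it. Other probesets are given beside it for some genes, and not always all of them. The plot of log2 fold change ordered by range shows every tested probeset of the genes with more than 1.

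Potassium channels let K+ leave or enter a cell and so set its resting potential, shape its action potentials and limit repetitive firing. The Kv1, Kv3, Kv4 and Kv7 families open on depolarization, inward rectifiers and leak channels act near rest, and the BK and SK types respond to calcium. In the hippocampus, Kv4 channels carry much of the A-type current of pyramidal cell dendrites, some Kv3 channels serve fast-spiking interneurons, and Kv7 channels carry the M current. Pore subunits work with partners, among them the Kcnab, Kcnip, Kcne and Kcnmb proteins.

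None of these genes was called different between Tg and wt mice. After the 31% of probesets with the lowest mean signal had been left out, 119 probesets of 62 genes were tested with limma, and 0 of the 119 had a Benjamini-Hochberg adjusted p under 0.05. This is also the share over all 31076 tested probesets, 0%, where the lowest adjusted p was 0.135. Cyber-T, the moderated test that the study's methods name, called 0 of the 119 Kcn probesets and 0.212% of all tested probesets. At an unadjusted p under 0.05, 8 Kcn probesets were higher in Tg mice, against 5.99% of all tested probesets, and 5 were lower, against 3.81%. These shares of the Kcn probesets, 6.72% and 4.2%, lie near the background. All Tg arrays lay above all wt arrays at 14 Kcn probesets (8.6% of all tested probesets) and below them at 11 (6.68%). They are descriptions, because no value here passed the adjusted threshold. Some probesets in these counts and in those of the next paragraphs passed the filter only through the group where they were high. Among them are probesets of Kcns3, Kcne1l, Kcnj6 and Kcnc1 with lower values in Tg mice, and that of Kcnk16 with higher values, each described below.

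At the brightest probesets the channel genes centred near no difference. The median log2 fold change of the 62 genes was -0.020, beside -0.031 over all 13863 genes tested, and 30 of 62 had a higher level in Tg mice, where 44.2% of all genes did. At an unadjusted p under 0.05, 0 of the 62 were higher (2.92% of all genes) and 2 were lower (5% of all genes). Tg and wt values did not overlap in 3 genes with higher values (5.2% of all genes) and 4 with lower values (8.83% of all genes). The 95% interval of the difference lay within 1.5-fold in either direction for 31 of 62 genes (55.8% of all genes) and within 2-fold for 50 (79.8% of all genes).

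**Figure D1:**
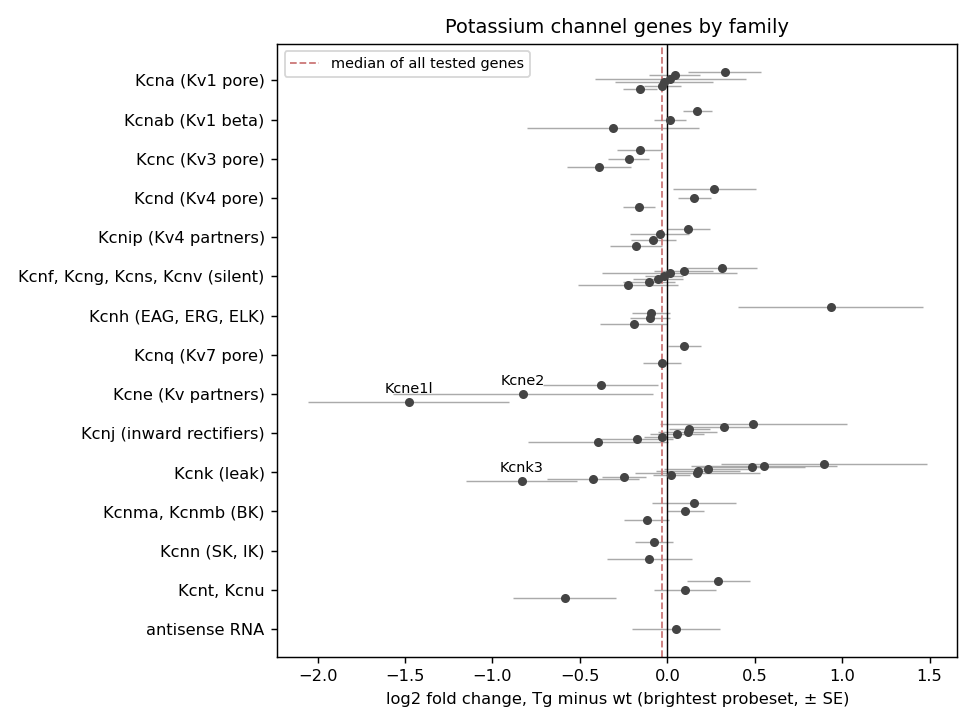
Log2 fold change (Tg minus wt, horizontal axis) of each tested potassium channel gene at its brightest probeset, by family (vertical axis). Points are genes, bars are standard errors, the dashed line is the median of all tested genes at -0.031; most points lie near 0, and the points farthest out are Kcne1l, Kcne2 and Kcnk3 to the left and Kcnh7 and Kcnk7 to the right.

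The other 20 genes had no probeset above the filter and were not tested. They were Kcna7, Kcne1, Kcne3, Kcnh5, Kcnh8, Kcnj1, Kcnj2, Kcnj5, Kcnj12, Kcnj14, Kcnj15, Kcnk5, Kcnk15, Kcnmb1, Kcnmb4os1, Kcnn3, Kcnn4, Kcnq1, Kcns1 and Kcnv2. Their brightest probesets had mean signals from 19.3 to 54.4, where the lowest mean signal tested was 54.7. Among them is Kcnq1, a Kv7 pore subunit that the study names. Its signals were 38.7, 54.9 and 24.1 in Tg mice and 6.8, 19.9 and 14.7 in wt mice. The groups did not overlap, at levels below the filter.

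The differences with the lowest p-values sat mainly at probesets that were not the brightest of their gene. Of the 13 Kcn probesets with an unadjusted p under 0.05, 11 were of this kind and 2 were the brightest. Among the 57 tested probesets that were not the brightest, 8 were higher, where the same kind of probeset gave 7.84% over all genes, and 3 were lower, where it gave 2.86%. Tg arrays lay above wt arrays without overlap at 11 of the 57, against 10.7% of all such probesets, and below at 7, against 4.91%. Their median log2 fold change was 0.17 beside 0.069 for all such probesets, and 34 of 57 lay above 0, where 59.6% of all did. In 6 of the 11 the brightest probeset of the same gene differed in the opposite direction, and in 5 in the same direction. The share over all genes was not computed for this count, and agreement among all probesets of a gene is given below with its background. An Affymetrix probeset reads a short stretch, usually near a 3′ end, so probesets of a gene can read different transcript ends. Which transcripts each one reads was not tested.

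Kcnd2 and Kcnip2 encode the partners of one channel complex: Kcnd2 the Kv4.2 pore of the A-type current, and Kcnip2 a calcium-binding KChIP protein that helps bring Kv4 channels to the membrane. Their promoters are shown because these genes had the lowest p-values among the Kcn probesets higher in Tg mice. The sequences are the 250 bases before the RefSeq gene start (build GRCm38.p6), 5′ to 3′ on the gene's strand, and capitals mark GC boxes (GGGCGG on either strand).
Kcnd2, chr6:21215096-21215345, plus strand: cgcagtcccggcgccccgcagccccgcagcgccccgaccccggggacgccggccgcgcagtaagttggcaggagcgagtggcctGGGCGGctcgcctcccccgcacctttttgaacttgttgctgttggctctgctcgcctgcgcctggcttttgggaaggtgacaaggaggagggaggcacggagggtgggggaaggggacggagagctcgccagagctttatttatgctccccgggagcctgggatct
Kcnip2, chr19:45816064-45816313, minus strand: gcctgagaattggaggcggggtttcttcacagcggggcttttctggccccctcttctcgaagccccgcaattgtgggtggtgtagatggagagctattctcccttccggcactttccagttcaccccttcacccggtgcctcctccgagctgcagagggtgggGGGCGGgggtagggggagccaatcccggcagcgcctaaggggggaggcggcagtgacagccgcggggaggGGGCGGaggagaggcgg
The Kcnd2 window held 1 GC box and the Kcnip2 window 2. A GC box occurred in 32.7% of all 32851 RefSeq promoter windows of this length and in 40 of the 87 member windows (46%). The member windows belong to the 62 of all 82 members, tested or not, that have one. A cyclic AMP response element (TGACGTCA) and a TATA box (TATAAA) were in neither window, and 1.55% and 12.4% of all windows held them. G and C made up 68.8% of the Kcnd2 window and 66.8% of the Kcnip2 window, beside a median of 58.8% over the 87 member windows and 52.4% over all windows. These matches describe the letters only.

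Kcnd2 was higher in Tg mice at each of its 3 tested probesets, although none passed the adjusted threshold. At the probeset 1450773_at the signals were 2800.3, 2631.7 and 2992 in Tg mice and 2196.8, 1806.8 and 2297.6 in wt mice. All Tg arrays lay above all wt arrays. The log2 fold change was 0.42 ± 0.11 (SE, n = 3 and 3), a 1.34-fold difference with a limma adjusted p of 0.239. At the brightest probeset the Tg mean was 4159 ± 155 and the wt mean 3752 ± 409 (SD, n = 3 each), the arrays overlapped, and the log2 fold change was 0.15 ± 0.09. The third tested probeset gave 0.21, and the remaining one, with a mean signal of 9.65, was below the filter. Of the other Kv4 pores, Kcnd1 gave 0.27 and Kcnd3 gave -0.16 at the brightest probeset, both overlapping.

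Kcnip2 was likewise above 0 at each of its 3 tested probesets. At 1425870_a_at the signals were 1353.2, 1373.9 and 1625.7 in Tg mice and 1038.3, 889.6 and 1193.7 in wt mice. Again the groups did not overlap. The log2 fold change was 0.48 ± 0.13 (SE), 1.39-fold, with a limma adjusted p of 0.255. The brightest probeset gave 0.12 ± 0.12 with overlapping arrays. The probeset 1425870_a_at is in the study's own list of differing probesets, which was chosen on these arrays, so its direction is no independent evidence. The other KChIP genes lay slightly below 0 at the brightest probeset: Kcnip1 at -0.04, Kcnip3 at -0.18 and Kcnip4 at -0.08, all overlapping.

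A further partner of Kv4 channels, Dpp10, stood on the other side. Its signals were 396.6, 658.2 and 900.3 in Tg mice and 1069.1, 1120.3 and 981.1 in wt mice. All Tg values were below all wt values, with a log2 fold change of -0.76 ± 0.23 (SE) and a limma adjusted p of 0.293. Its relative Dpp6, which has the same role, gave 0.02 ± 0.10 with overlapping arrays. The values of Kcnd2, Kcnip2 and Dpp10 therefore did not share a direction, and none passed the adjusted threshold.

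The Kv1 family, which sets the firing threshold at axons and their terminals, showed small differences at the brightest probesets. Of 6 tested pore genes, 3 lay above and 3 below 0, with a median of -0.0017. The farthest, Kcna6, had signals of 860.1, 476.2 and 875.4 in Tg mice and 537.4, 522.8 and 636.5 in wt mice. Its second Tg array was the lowest of all 6, and the log2 fold change was 0.33 ± 0.21 (SE, adjusted p 0.640 in limma). The Kcna6 probeset that the study lists, 1421568_at, gave 0.51 ± 0.26 without overlap (limma adjusted p 0.554), and its remaining probeset gave -0.28 with overlap.

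The cytosolic beta subunits of Kv1 channels differed among themselves. Kcnab2, the beta subunit also known for its aldo-keto reductase fold, had signals of 7302.3, 6570.2 and 7060.3 in Tg mice and 5756.2, 6343 and 6485.1 in wt mice at the brightest probeset. All Tg arrays lay above all wt arrays, by a log2 fold change of 0.17 ± 0.08 (SE, limma adjusted p 0.527). At 1425885_a_at, which the study lists, the signals were 2530.7, 3544.2 and 3900.1 against 2619, 1571.4 and 2195.7. There the first Tg array fell below the first wt array, while the log2 fold change was larger, 0.65 ± 0.18 (limma adjusted p 0.270). Kcnab1 gave 0.02 and Kcnab3 gave -0.31 at the brightest probeset, both overlapping. Their further probesets gave 0.21 without overlap for Kcnab1 and -0.52 with overlap for Kcnab3.

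**Figure D2:**
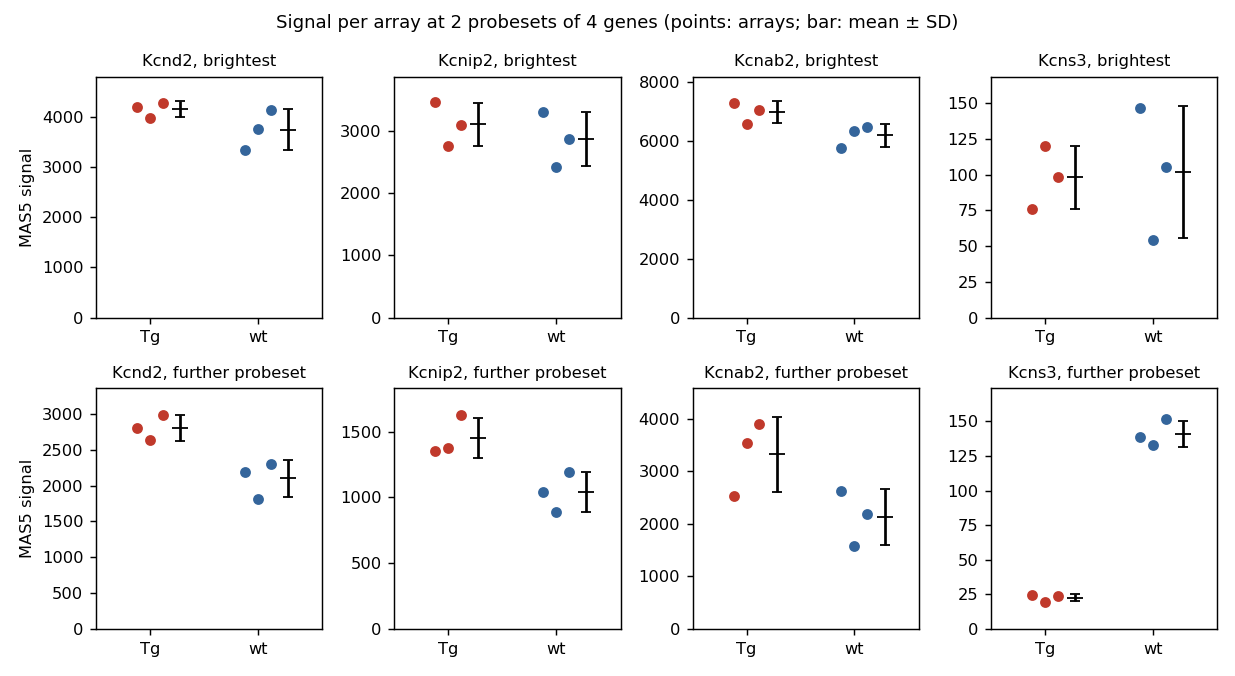
MAS5 signal (vertical axis, from 0) of each Tg and wt array at the brightest probeset (top) and the further probeset with the lowest p (bottom) of Kcnd2, Kcnip2, Kcnab2 and Kcns3; points are arrays and bars are means with SD (n = 3). The further probesets of Kcnd2 and Kcnip2 separate the groups with Tg higher, that of Kcns3 with Tg lower, and the brightest Kcns3 probeset overlaps.

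Kcns3, which encodes a silent subunit (a Kv subunit that forms no channel alone and modifies its partners), had the largest difference and the widest disagreement. At 1445519_at the signals were 24.8, 19.6 and 23.7 in Tg mice and 138.4, 132.9 and 151.4 in wt mice. The arrays within each group were close, and the groups were far apart. The log2 fold change was -2.02 ± 0.42 (SE, 95% interval from -2.93 to -1.11), 0.246 of the wt level on the scale of log2(signal + 16), with a limma adjusted p of 0.205. The mean over 6 arrays, 81.8, passed the filter through the wt arrays, since the Tg mean of 22.7 alone was below it. The only other tested Kcns3 probeset, the brightest, had 76.1, 120 and 98.2 in Tg mice and 146.6, 54.5 and 105.1 in wt mice. These values overlapped, with a log2 fold change of 0.014 ± 0.39. The range between the 2 probesets, 2.03, was the widest of any Kcn gene. Over the 7 tested genes of silent subunits, 3 lay above and 4 below 0 at the brightest probeset, with a median of -0.018.

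Kcns3 was an extreme case of a common pattern. Of the 35 Kcn genes with more than 1 tested probeset, 13 had all probesets on the same side of 0, or 37.1%, where 41.6% of the 6787 such genes on the whole array did. The median range of log2 fold change among the probesets of a gene was 0.36 for Kcn genes and 0.35 for all genes. The potassium channel genes were thus close to the background in this respect. The genes in the next sentences were chosen after their values were seen.

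Kcnc1, a Kv3 pore subunit, had 1215, 1289.4 and 1466.8 in Tg mice and 1454.1, 1721.4 and 1462.7 in wt mice at its brightest probeset, a log2 fold change of -0.22. At 1423559_at it had 1089.4, 1104.6 and 1180 against 853, 848.8 and 1067.1, all Tg arrays higher, a log2 fold change of 0.29. Kcnj6, the GIRK2 inward rectifier opened by G proteins, gave 0.49 ± 0.53 at the brightest probeset, with 20.5 on the third wt array against 121.4 and 184.9 on the others. At 1421581_at it gave -1.21 ± 0.53, with signals of 39.6, 31.9 and 15.5 in Tg mice against 130.4, 50 and 90.9 in wt mice. Its mean over 6 arrays, 59.7, passed the filter through the wt arrays, since the Tg mean of 29 alone was below it. Kcnma1, the pore of the BK channel, gave -0.12 at the brightest probeset and 0.51 at 1440728_at, where the arrays did not overlap, and the other 3 of its 5 tested probesets lay between -0.082 and 0.064. The limma adjusted p was 0.570, 0.485 and 0.549 for Kcnc1 at the brightest probeset, 1423559_at and 1456965_at. It was 0.799 and 0.486 for the Kcnj6 probesets given, and 0.798 and 0.377 for the brightest Kcnma1 probeset and 1440728_at.

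**Figure D3:**
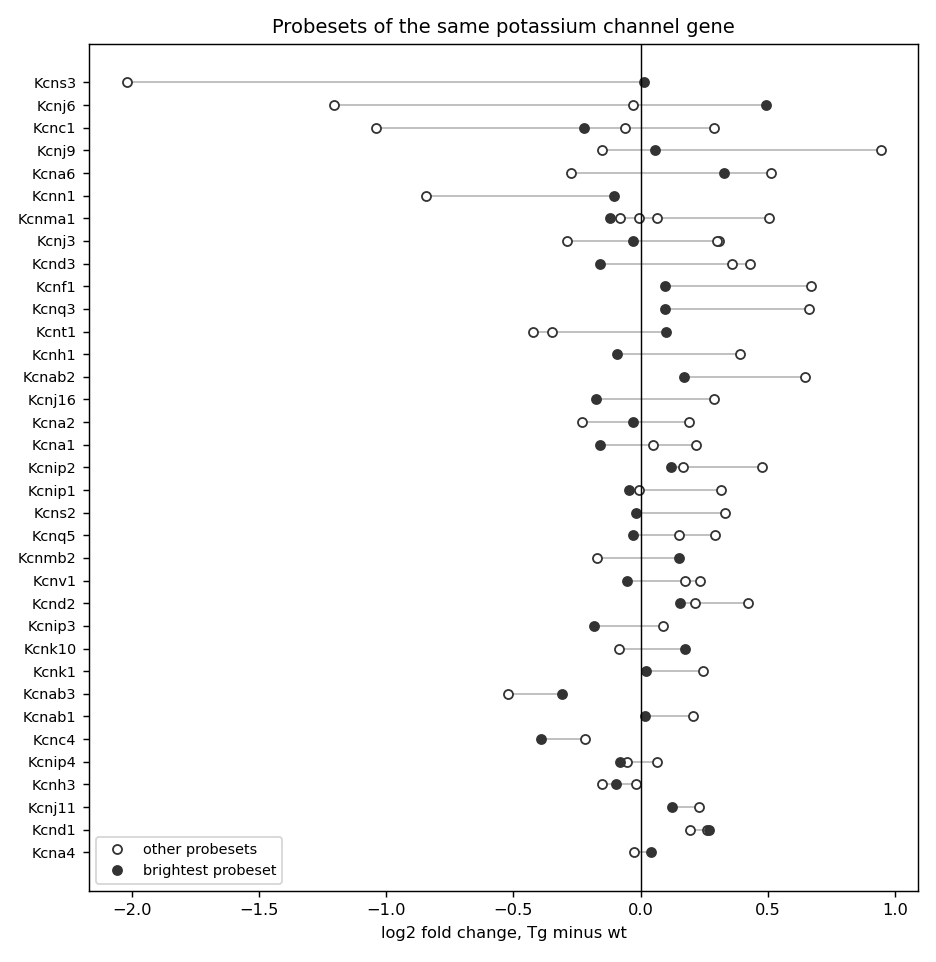
Log2 fold change (Tg minus wt, horizontal axis) of every tested probeset of the 35 potassium channel genes with more than 1, ordered by range. Filled points are the brightest probeset and open points the others; in 22 genes the points lie on both sides of 0.

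The Kv3 (Kcnc) pore genes were all on the lower side at the brightest probeset. Kcnc4 had 510.6, 571.3 and 821.8 in Tg mice and 696.1, 947.2 and 834.6 in wt mice, which gave -0.39 ± 0.18 on the log2 scale (SE, limma adjusted p 0.517). The third Tg array lay above the first wt array. Kcnc1 gave -0.22 ± 0.12, as above, and Kcnc2 gave -0.16 ± 0.13. The Kcnc4 probeset is among the 5 Kcn probesets of the study's list. Some Kv3 channels are enriched in interneurons, and which cells express each Kcnc gene was not examined here. The marker genes of GABAergic interneurons lay lower in Tg mice beside the Kcnc genes, 9 of 9, with a median of -0.35. The summed marker signal, in which Gad1 (overlapping arrays) weighed most, was 18364.5, 20772.6 and 21521.9 in Tg mice. In wt mice the sum was 22043.1, 26884.4 and 23776.3. Among the markers, somatostatin (Sst) gave -0.48 ± 0.10 without overlap, parvalbumin (Pvalb) -0.12 ± 0.11 and Gad2 -0.47 ± 0.16. None of the 9 had a limma adjusted p under 0.05, while 4 were lower at an unadjusted p under 0.05 (5% of all genes). Cyber-T gave Sst an adjusted p of 0.0487. In whole tissue, fewer cells of a type and less RNA per cell cannot be told apart, and the part of the interneuron markers in the Kcnc values was not tested.

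The Kcne genes, small membrane partners of Kv pores, had log2 fold changes below 0 in all 3 tested cases, although the mean signal of Kcne2 was higher in Tg mice. Kcne1l had 102.6, 14.7 and 11.1 in Tg mice and 103.1, 109.4 and 127 in wt mice. The first Tg array was just below the lowest wt array, and the other two were far below. The log2 fold change was -1.48 ± 0.58 (SE, limma adjusted p 0.436). Its mean over 6 arrays, 78.0, passed the filter, while the Tg mean of 42.8 alone was below it. Kcne4 gave -0.38 ± 0.33 with overlap.

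Kcne2, a partner known to be strongly expressed in the choroid plexus and chosen here after its values were seen, had 113.7, 971.6 and 38.9 in Tg mice and 250.7, 366.5 and 368.2 in wt mice. The second Tg array was the highest and the third the lowest of all, and the log2 fold change was -0.83 ± 0.74 (limma adjusted p 0.749). Transthyretin (Ttr), a choroid plexus marker, had 40079.7, 57637.7 and 3915.2 in Tg mice and 50822.4, 48740.4 and 44775.6 in wt mice. All 4 measured choroid plexus markers had log2 fold changes below 0, while the mean signal in Tg mice was lower for Ttr alone and higher for Folr1 (715 against 699), Kl (1078 against 907) and Clic6 (1176 against 973). The summed marker signals were from 4396.4 to 64402.4 on Tg arrays and from 47146.8 to 53584.4 on wt arrays. These sums are mostly Ttr, with 50822.4 of 53584.4 on the first wt array, and do not summarise the 4 markers evenly. Without the third Tg array the log2 fold change of Kcne2 was 0.075. The part of the choroid plexus in the Kcne2 value was not tested.

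**Figure D4:**
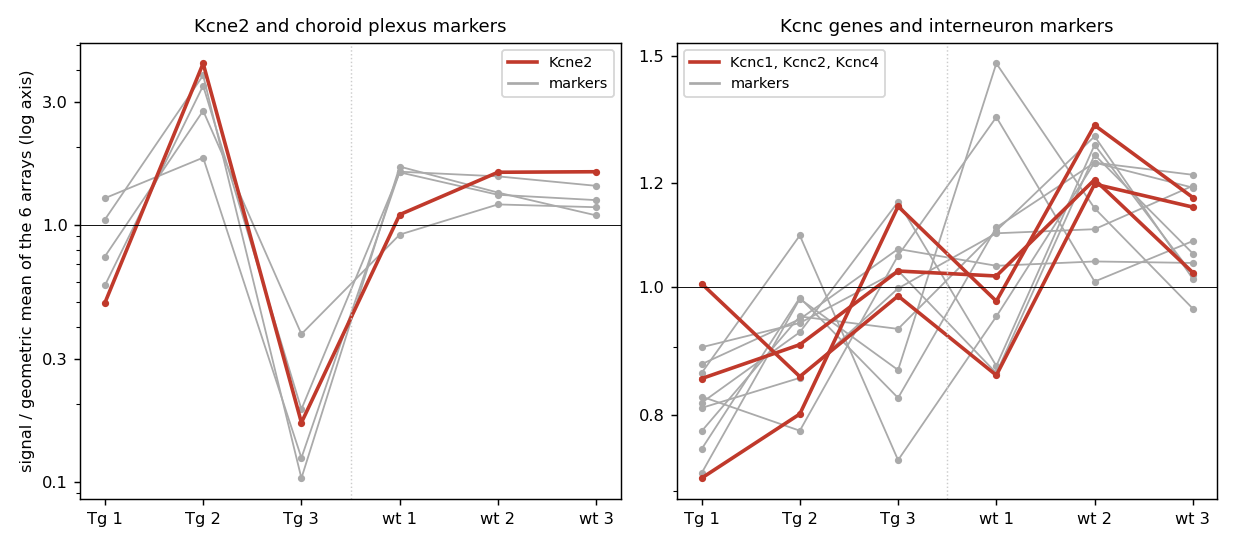
Signal of each array relative to the geometric mean of the 6 arrays (vertical axis, log scale) for Kcne2 with 4 choroid plexus markers (left) and for Kcnc1, Kcnc2 and Kcnc4 with 9 interneuron markers (right); red lines are channel genes and grey lines markers. Kcne2 is highest on the second and lowest on the third Tg array, as the choroid plexus markers are, and the Kcnc genes and interneuron markers vary less, with the lower values mainly on Tg arrays.

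Among leak channels (Kcnk), which hold the resting potential, 7 of 10 tested genes lay above 0 and 3 below, with a median of 0.17. Kcnk3, the acid-sensitive TASK1 channel, was the gene with the lowest p at its brightest probeset. It had 56.9, 110.8 and 82.4 in Tg mice and 141.2, 163.4 and 166.4 in wt mice, all Tg arrays below all wt arrays. The log2 fold change was -0.83 ± 0.32 (SE, limma adjusted p 0.422), and its other 2 probesets were below the filter. On the upper side Kcnk7 gave 0.89 ± 0.59 and Kcnk16 gave 0.55 ± 0.42, at mean signals of 69.4 and 67.2, near the filter. Both passed it through the Tg arrays, since their wt means of 47.6 and 51.7 alone were below it, and both are among the 7 above 0. Kcnk1, the TWIK1 channel, gave 0.02 ± 0.11 at its brightest probeset and 0.24 at 1455896_a_at, where the arrays did not overlap. Kcnk15, untested, had 1.3, 6.9 and 11.3 in Tg mice and 56.3, 58.7 and 42.4 in wt mice. These 3 genes and Kcnk15 were chosen after their values were seen.

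Inward rectifiers (Kcnj), which pass K+ more readily into the cell than out of it, lay above 0 in 5 of 8 tested genes, with a median of 0.085. Kcnj3, the GIRK1 subunit, had 1717.6, 1906.1 and 1885.1 in Tg mice and 1726.5, 1840 and 2072.8 in wt mice at its brightest probeset. These overlapped, with a log2 fold change of -0.031 ± 0.10. At 1444025_at it had 822.2, 861.8 and 858.7 against 562.7, 751.8 and 747.9, without overlap, a log2 fold change of 0.31 ± 0.14 (limma adjusted p 0.509). Kcnj3 gave 0.30 at 1421468_at and -0.29 at 1444336_at, both without overlap. The glial channel Kcnj10 (Kir4.1), which clears K+ around neurons, gave 0.12 ± 0.17, and Kcnj11, the pore of the ATP-sensitive channel that links metabolism to excitability, gave 0.13 ± 0.12.

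Among calcium- and sodium-activated channels, no gene had an unadjusted p under 0.05 at its brightest probeset. Kcnmb4, the neuronal beta subunit of BK channels, gave 0.10 ± 0.11, with a Tg mean of 2128 ± 223 and a wt mean of 1976 ± 140 (SD, n = 3 each). Kcnn2, an SK channel of the afterhyperpolarization, gave -0.08 ± 0.11, with means of 1268 ± 92.0 and 1337 ± 67.9. Arrays of both genes overlapped. Kcnt1, a sodium-activated channel, gave 0.10 ± 0.18 at the brightest probeset and -0.35 ± 0.20 at the probeset in the study's list, 1458428_at, where its signals were 218.9, 234.4 and 238.2 in Tg mice and 247.3, 358.6 and 296 in wt mice. At the listed probeset the groups did not overlap (limma adjusted p 0.606). Kcnt1 gave -0.42 with overlap at 1441511_at. Kcnt2, also sodium-activated, gave 0.29 ± 0.18 with overlap, and Kcnu1, the pH-sensitive SLO3 channel of sperm, gave -0.59 ± 0.29 at its brightest probeset without overlap (limma adjusted p 0.548). Kcnn1, chosen after its values were seen, gave -0.10 ± 0.24 at the brightest probeset and -0.84 ± 0.37 at 1419617_at.

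In the Kv7 family, which carries the M current, Kcnq3 had 347.4, 261.2 and 337.5 in Tg mice and 224.2, 144.3 and 217.6 in wt mice at 1458421_at. The groups did not overlap, and the log2 fold change was 0.66 ± 0.23 (SE, limma adjusted p 0.365). At its brightest probeset Kcnq3, chosen after its values were seen, gave 0.10 ± 0.09, and Kcnq5 gave -0.03 ± 0.11. Of the Kcnh genes (EAG, ERG and ELK channels), Kcnh1 gave -0.09 ± 0.11 at the brightest probeset, with Tg arrays from 948.3 to 1070.2 just below wt arrays from 1077.3 to 1110.7. At 1418414_at Kcnh1 gave 0.39 ± 0.15, with Tg arrays from 628.1 to 771.2 above wt arrays from 471.1 to 592.5 (limma adjusted p 0.415). Kcnh7, an ERG channel chosen after its values were seen, gave 0.94 ± 0.53 at its brightest probeset without overlap, with 12 on the second wt array against 114.1 and 97.3 on the others (limma adjusted p 0.600). The antisense RNA Kcnmb4os2 gave 0.05 ± 0.25 with overlapping arrays.

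Genes outside the family that act on potassium current were taken from a list of 27, of which 18 were tested. On this list 11 lay above and 7 below 0, with a median log2 fold change of 0.048, and 0 had an adjusted p under 0.05. At an unadjusted p under 0.05, 1 of the 18 was higher (2.92% of all genes) and 2 were lower (5% of all genes). The higher one was Dlg4 (PSD-95), a scaffold that clusters Kv1 channels and glutamate receptors, with 2314.3, 1654.5 and 2536.7 in Tg mice against 1554.1, 943.4 and 1501.7 in wt mice. These did not overlap, with a log2 fold change of 0.71 ± 0.19 (SE, limma adjusted p 0.252). The lower ones were Dpp10, given above, and Adam23, a partner of the Kv1-associated Lgi1 complex, at -0.41 ± 0.17 with overlap (limma adjusted p 0.479). The calmodulin genes on the list were not analysed here.

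Markers of hippocampal regions were measured beside all of these values. Of the 5 measured CA1 pyramidal cell markers 3 lay above 0, with a median of 0.0072, and of the 8 CA2 and CA3 markers 6 lay above 0, with a median of 0.27. All 10 dentate gyrus granule cell markers lay above 0, with a median of 0.47. Their summed signals were 15677.3 to 17130.6 in Tg and 12101.4 to 15626.5 in wt mice. Calb1 and C1ql3, whose arrays overlapped between the groups, weighed most in these sums. All 7 measured markers of subiculum and retrohippocampal cortex lay below 0, with a median of -0.79. The 5 pan-neuronal markers centred at 0.0062. None of these had an adjusted p under 0.05 in limma, although 5 dentate gyrus markers were higher at an unadjusted p under 0.05 (2.92% of all genes), 5 retrohippocampal markers were lower (5% of all genes) and Cyber-T called Dsp, Lct and Tshz2 among them, and the part of tissue composition in the channel values was not tested. The 3 Tg arrays had a Glud1 signal of 5424 ± 268, below the wt signal of 6010 ± 368 (SD, n = 3 each), with a log2 fold change of -0.15. The sources used here do not say whether this probeset reads the transgene, so it checks no label.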

How the data were processed

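Hippocampal RNA of 3 Tg and 3 wt mice was hybridised to 1 array each. The deposited values are intensities on a linear scale (MAS5 signals), which the authors' software had brought to a trimmed mean of 500 on every array. The study's lists came from RMA values and SAM, with Cyber-T as a further test, whereas the MAS5 signals were used here. The 64 controls were set aside, then the dimmest 31% of probesets by mean over the 6 arrays. Groups were compared on log2(signal + 16), where low signals show smaller differences, with limma 3.58.1 in R 4.3.3 (two-sided, intensity trend, Benjamini-Hochberg over 31076 probesets). For Cyber-T the window was 101 and the confidence 10. The median signal per array was between 297 and 319, and the number of arrays limits the precision. Replicates are separate mice. The limma and Cyber-T steps were tested on simulated data. The outcome is not reported here, so no detectable size of difference is given.

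The probe annotation gave 1 gene for 34945 probesets, several for 932 and none for 9160, and all 82 member symbols were found in RefSeq. A Kcn gene that this annotation does not list under a single symbol was not analysed here, and results for some genes are not reported here. Members, families, the list of 27 genes and the marker lists were chosen with earlier results of these data known. Genes were named if called, if their brightest probeset had an unadjusted p under 0.05 without overlap, if the study names them, if they had the widest range among probesets, or, in a family left without a name, if they had the highest mean signal. Kcns3 was named because it was known from earlier results of these data. Further members of a described family were added with their values in view, as were the genes marked so in the text. Replicate numbers did not pair the arrays (correlations of deviations of -0.017, 0.0077 and 0.033). The alternatives were added constants of 1 and 64, quantile normalization, median centring, no filter, the brightest 50% of probesets, limma without trend or with array weights, Cyber-T, a replicate block, the mean of a gene's probesets and leaving out each array. Figures were drawn with matplotlib 3.10.9.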

Additional observations from a re-analysis of the deposited data

How the results depend on the processing

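No potassium channel probeset passed an adjusted p of 0.05 under any alternative that tested probesets singly (0 called in each). The replicate block and the fits without 1 array are included. With a gene's probesets averaged, calls were not counted. The block gave 0 higher genes and 3 lower ones by unadjusted p, with a median of -0.020, beside 0, 2 and -0.020 without it, and the replicate numbers did not pair the arrays. Counts at an unadjusted p rested on few genes, and brackets hold the share of all genes where given. The number higher was 1 with quantile normalization (2.73%), 1 without the trend (2.42%) and 3 with a gene's probesets averaged. The number lower was 4 with quantile normalization (5.26%), 7 of 62 with median centring (9.63%) and 4 of 82 without a filter (4.43%). It was 0 of 51 among the brightest 50% of probesets (5.62%) and 4 with array weights. The share of all genes is not reported here for the other counts. Leaving out 1 array gave 0 to 3 higher and 0 to 6 lower (0 without wt 2 or wt 3, 1 without Tg 1, 5 without Tg 3, 6 without wt 1) and medians from -0.035 to 0.016. The median was -0.086 with median centring, where that of all genes was -0.097, and 0.053 with probesets averaged, where that of all genes was 0.0073.

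The changes of filter, the fit without trend, Cyber-T and the replicate block leave a log2 fold change as it is, so their values could not turn. They are among the 542 alternative values of 33 named probesets, of which 518 kept their direction. The others turned. Kcns3 at its brightest probeset became -0.0044 with 64 added, -0.080 with quantile normalization, -0.052 with centring and -1.0029 with its probesets averaged. Kcnmb4os2 became -0.029 with quantile normalization and -0.018 with centring. Averaging probesets, for single genes an alternative chosen after seeing the data, gave 0.15 for Kcnh1, 0.073 for Kcnj3, -0.25 for Kcnj6, 0.073 for Kcnma1 and -0.22 for Kcnt1. Without 1 array the ranges were -0.32 to 0.29 for Kcns3 (negative without Tg 2 or wt 2), -0.063 to 0.23 for Kcnmb4os2 (negative without Tg 1, Tg 3 or wt 1), -0.090 to 0.041 for Kcnj3 (positive without Tg 1 or wt 3), -0.27 to 0.021 for Kcnn1 (positive without Tg 2 or wt 3), -2.01 to 0.075 for Kcne2 (positive without Tg 3), -0.049 to 0.21 for Kcnt1 (negative without Tg 3 or wt 1) and -0.24 to 0.99 for Kcnj6 (negative without wt 3). The Kcns3 probeset 1445519_at stayed between -2.59 and -1.24, with adjusted p from 0.0779 to 0.482. Causes were not tested. The signal over background was not analysed here, and dim probesets limit what can be seen.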
